A study of Mus musculus with 3 samples.

Results

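Embigin (Emb), basigin (Bsg, also CD147) and the lactate transporters MCT1 (Slc16a1) and MCT4 (Slc16a3) were followed in natural killer (NK) cells of mouse lung and blood, as 4 of the 25906 genes counted. The 4 genes were picked by symbol from the gene rows, with earlier results of these data in view, so their levels are given as a description and no test is attached to them. All mice were wild-type females of 9 weeks, and sorted live NK1.1+NKp46+ cells of lung and of blood were marked with hashtag B0304 or B0306 and sequenced together. There were 3 libraries: naive mice without treatment, mice killed 6 h after an intravenous dose of 100000 PyMT tumor cells, and mice killed 14 days after the same dose. Each time point was 1 library made from the cells of several mice, no label ties a cell to a mouse, and a time point therefore cannot be told apart from its library. Lungs were minced and digested with collagenase at 37 °C whereas blood was only freed of red cells, so that tissue and preparation cannot be told apart either.

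A monocarboxylate transporter moves lactate or pyruvate together with a proton across the plasma membrane, and MCT1 and MCT4 reach the membrane only with an ancillary glycoprotein of the immunoglobulin superfamily. Basigin is the usual partner of both MCT1 and MCT4, embigin is the partner of MCT2 and can also serve MCT1, and neuroplastin (Nptn) is a close relative of both. MCT1 takes up or releases lactate according to the gradient, while MCT4 is known for lactate export from glycolytic cells. Embigin was first known from early embryos and also takes part in cell adhesion. Mouse NK cells pass during maturation from CD27-bearing to CD11b-bearing (Itgam) stages, the last of which carry KLRG1 and CX3CR1.

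The genes lie on GRCm38 at chr13:117208536-117274415 (Emb, ENSMUSG00000021728), chr10:79704491-79711969 (Bsg, ENSMUSG00000023175), chr3:104638668-104658462 (Slc16a1, ENSMUSG00000032902) and chr11:120948480-120960868 (Slc16a3, ENSMUSG00000025161), each on the + strand. Gm17509 lies antisense within the span of Emb, and Gm43581 and Gm43585 overlap Slc16a1 on the same strand. None of these 3 genes has a row of its own in the files. The start regions are shown because Emb and Slc16a1 had the most similar order over the groups among the 4 genes, and each runs from 250 bases before to 50 bases after a RefSeq transcription start on GRCm38.p6, + strand. Capitals mark ACGTG on either strand, 1 form of the core of the site that hypoxia-inducible factors bind. Other forms were not searched, and a match does not tell which factor binds it. The windows are chr13:117220323-117220622, chr3:104638414-104638713 and chr11:120948817-120949116 in that order. Those of Emb and Slc16a3 lie inside the gene spans given above and not at their first bases, 117208536 and 120948480, whose surroundings were not searched.
Emb: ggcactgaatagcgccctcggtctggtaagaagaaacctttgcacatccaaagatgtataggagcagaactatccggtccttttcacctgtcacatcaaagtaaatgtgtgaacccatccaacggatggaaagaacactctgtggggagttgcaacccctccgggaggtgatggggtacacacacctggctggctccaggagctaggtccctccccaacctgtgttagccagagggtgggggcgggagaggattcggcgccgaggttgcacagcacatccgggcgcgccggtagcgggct
Slc16a1: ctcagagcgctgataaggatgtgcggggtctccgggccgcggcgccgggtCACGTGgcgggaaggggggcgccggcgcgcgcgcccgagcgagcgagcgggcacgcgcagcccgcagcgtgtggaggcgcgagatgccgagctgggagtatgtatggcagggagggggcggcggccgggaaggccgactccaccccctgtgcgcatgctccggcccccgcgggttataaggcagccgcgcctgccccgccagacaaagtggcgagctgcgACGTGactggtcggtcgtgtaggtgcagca
Slc16a3: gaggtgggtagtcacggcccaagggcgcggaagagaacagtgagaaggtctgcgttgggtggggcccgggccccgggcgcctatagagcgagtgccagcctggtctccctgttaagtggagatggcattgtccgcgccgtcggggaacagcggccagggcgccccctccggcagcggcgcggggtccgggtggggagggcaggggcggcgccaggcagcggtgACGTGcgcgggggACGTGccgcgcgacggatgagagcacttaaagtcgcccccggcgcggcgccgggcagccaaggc
The window of Emb held no ACGTG, and 19.6% of 32851 mouse promoter windows of this length held at least 1. The window of Slc16a1 held 3 matches, of which those at positions -200 and -199 from the start overlap as 1 CACGTG, a hexamer found in 7.15% of windows. The window of Slc16a3 held 2 matches, at positions -27 and -14. These matches describe letters only.

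The 6 groups (library by hashtag) held 2069 to 4680 cells each, with 16936897 to 35922737 UMIs per group and a median of 5910 to 7524 UMIs per cell. All 8 NK markers (Ncr1, Klrb1c, Klrd1, Nkg7, Eomes, Gzma, Prf1 and Tbx21) were detected in every group, at 15596 to 22983 counts per 1000000 UMIs (CPM) in sum. The 4 endothelial genes stood at 49.6 to 84.9 CPM in sum, nearly all from Pecam1, with 1077 to 2326 UMIs per group. Of the others, Kdr had at most 3 UMIs in a group, and Cdh5 and Cldn5 were at 0 except in 14-day lung. The summed CPM was 31.1 to 57.9 for 6 T cell genes, 15.8 to 94.4 for 6 myeloid genes, 0.453 to 1.99 for 5 epithelial and tumor genes and 0 to 0.223 for 2 platelet genes. The 5 erythroid genes stood at 86.5 to 93.6 CPM (interval) in 14-day lung and between 1.48 and 2.57 elsewhere, and 6 genes of innate lymphoid cells of type 1 (ILC1) stood at 76.2 to 151.5. The libraries shared 16 (naive and 6 h), 11 (naive and 14 days) and 7 (6 h and 14 days) cell barcodes. All intervals are 95% exact intervals that cover counting error only.

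Emb set lung apart from blood in each library, whereas Bsg differed little and both transporters were counted in few cells. Emb had 362.4 CPM (95% CI 355 to 370) in naive lung and 68.2 (65.3 to 71.2) in naive blood. At 6 h it had 396.6 CPM (390 to 403) in lung and 74.0 (70.5 to 77.7) in blood, and at 14 days 269.0 (263 to 275) and 42.6 (39.6 to 45.9). The 3 lung groups were thus all above the 3 blood groups, and the lowest lung group (14 days) lay 3.63-fold above the highest blood group (6 h). In order of level the groups ran 6 h lung, naive lung, 14-day lung, 6 h blood, naive blood and 14-day blood, each neighbour differed beyond its counting interval, and the range was 9.30-fold.

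**Figure D1:**
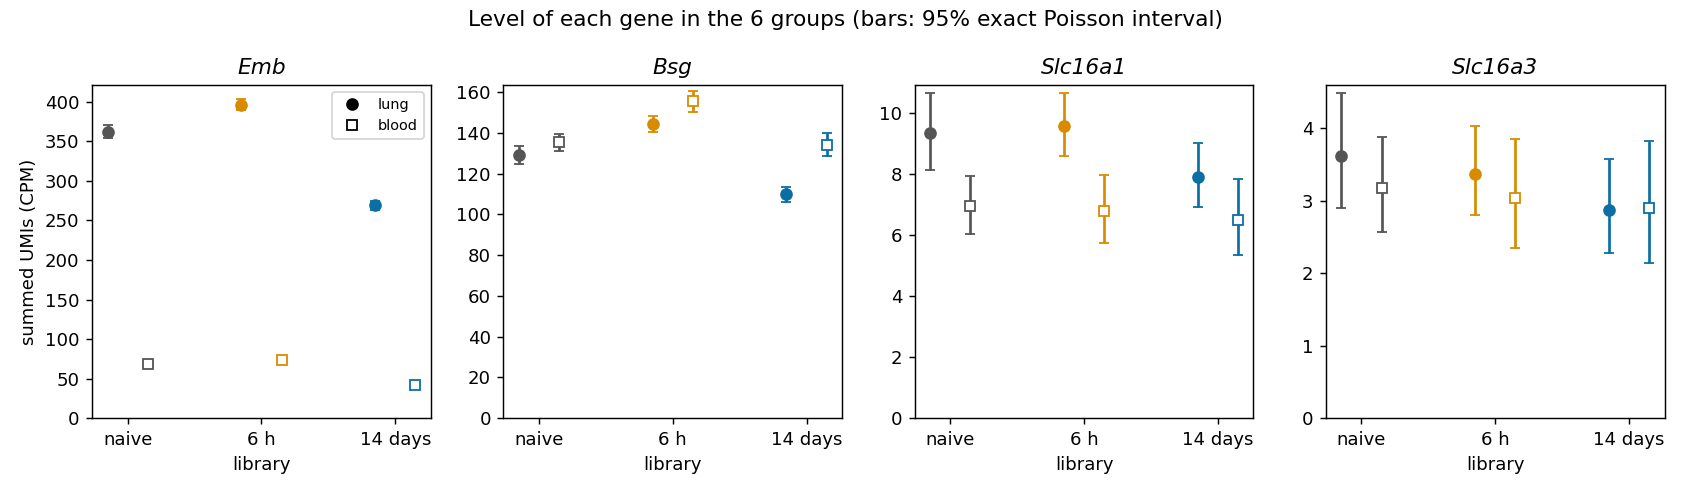
Level of each gene in the 6 groups, as CPM of all UMIs of the group (y axis, from 0) by library (x axis), with lung as filled circles, blood as open squares and 95% exact Poisson intervals as bars. Emb lies between 269.0 and 396.6 CPM in lung and between 42.6 and 74.0 in blood, while the intervals of Slc16a3 overlap in all 6 groups.

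Bsg had 129.1 CPM (125 to 134) in naive lung and 135.4 (131 to 140) in naive blood. At 6 h it had 144.2 (140 to 148) in lung and 155.5 (150 to 161) in blood, and at 14 days 109.8 (106 to 114) in lung and 134.3 (129 to 140) in blood. Bsg was thus lowest in 14-day lung and highest in 6 h blood, 1.42-fold apart. Naive blood and 14-day blood, and 14-day blood and naive lung, were neighbours in this order that did not differ beyond counting error.

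Slc16a1 had 9.33 CPM (219 UMIs), 9.58 (344 UMIs) and 7.91 (223 UMIs) in naive, 6 h and 14-day lung. In blood it had 6.94 (208 UMIs), 6.79 (150 UMIs) and 6.50 (110 UMIs). The 3 lung values lay above the 3 blood values, but no neighbours in the order differed beyond counting error. Slc16a3 had 3.62 CPM (85 UMIs), 3.37 (121 UMIs) and 2.88 (81 UMIs) in lung and 3.17 (95 UMIs), 3.04 (67 UMIs) and 2.89 (49 UMIs) in blood, and no pair of neighbours differed.

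UMIs of all 4 genes were also found in barcodes with at most 100 UMIs, which hold RNA free in the suspension, at 111.3 to 161.5 CPM for Emb and 164.7 to 196.9 for Bsg. Each marker gene that NK cells should lack gave an upper bound on the share of free RNA in the UMIs of cells. The lowest bound was 3.34% in the naive library (Hba-a1), 4.21% at 6 h (Ms4a1) and 0.762% at 14 days (S100a9). The gene thus differed between libraries, and Ms4a1 gave 7.97% in the naive and 3.19% in the 14-day library. At the lowest bounds free RNA could give at most 0.356% to 1.71% of the Emb UMIs of the lung groups and 2.24% to 9.18% of those of the blood groups. For Bsg, Slc16a1 and Slc16a3 the limit was at most 5.74%, 4.74% and 6.21% over the 6 groups. Lung and blood cells of a time point were in the same suspension and thus met the same free RNA.

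Within each library, Emb was higher in lung than in blood by a log2 ratio of 2.41 (2.34 to 2.48) in naive mice, 2.42 (2.35 to 2.50) at 6 h and 2.66 (2.55 to 2.77) at 14 days. These are 5.31-fold, 5.36-fold and 6.31-fold differences, and the mean over libraries was a log2 ratio of 2.496 ± 0.14 (SD, n = 3). The 3 libraries are different time points and not replicates, so this SD mixes time point with library. As background, genes reaching 50 CPM in 1 of the tissues were at least 2-fold higher in lung in 4.11%, 3.90% and 3.05% of cases at naive, 6 h and 14 days, and at least 2-fold lower in 0.369%, 0.279% and 0.377%. Emb ranked 32nd of 4067, 29th of 3948 and 17th of 3711 genes from the highest lung over blood ratio, a rank that the choice of the gene uses. Of the 4 genes, 2 (Emb and Bsg) reached 50 CPM and Emb alone passed 2-fold.

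Bsg was slightly lower in lung than in blood, by -0.068 (-0.137 to 0.000) on the log2 scale in naive mice, -0.11 (-0.17 to -0.046) at 6 h and -0.29 (-0.37 to -0.21) at 14 days. The median over all genes was -0.069, -0.072 and -0.095, so that only the value at 14 days lay away from it, by -0.20. Here and below, a median or shift of all genes covers genes reaching 50 CPM in either group compared, which leaves out Slc16a1 and Slc16a3. Slc16a1 was higher in lung by 0.43 (0.15 to 0.71) in naive mice and 0.50 (0.21 to 0.78) at 6 h, and at 14 days the value of 0.29 (-0.051 to 0.63) did not exceed counting error. With each cell thinned at random to 3000 UMIs, so that all cells weigh the same, that last value was -0.20 (-0.78 to 0.39). Slc16a3 had ratios of 0.19 (-0.25 to 0.63), 0.15 (-0.29 to 0.60) and -0.009 (-0.54 to 0.53), all within counting error.

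**Figure D2:**
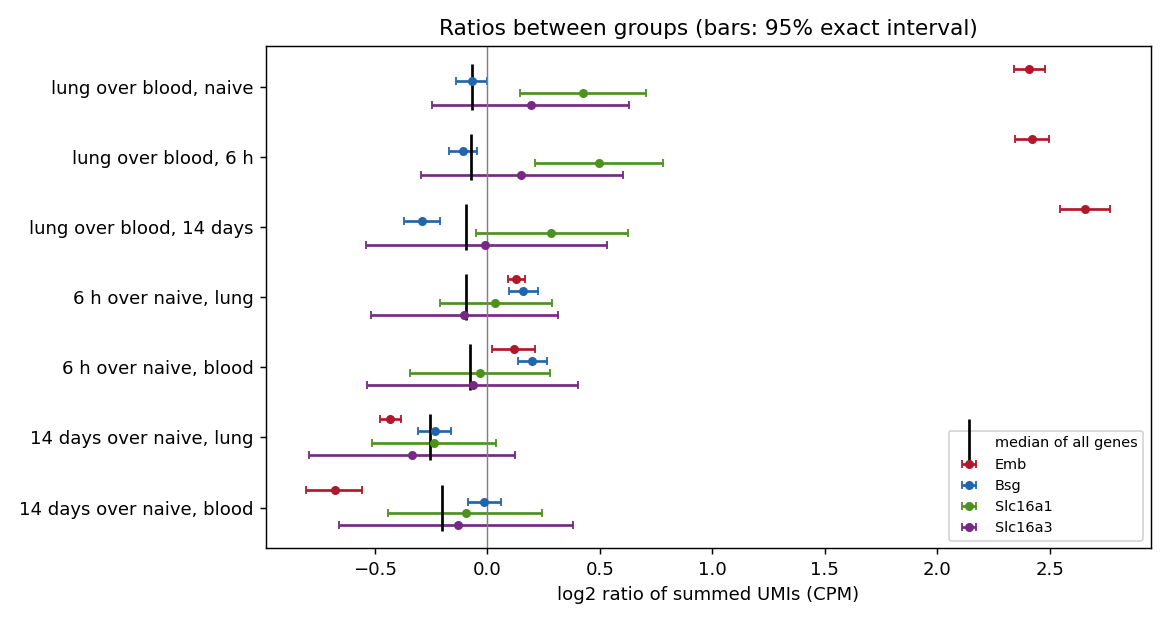
Log2 ratios of summed UMIs between groups (x axis) for the 7 comparisons (y axis), 1 color per gene, with 95% exact intervals as bars and the median over genes reaching 50 CPM as black ticks. Emb stands at 2.41 to 2.66 in the comparisons of lung with blood, and the other 3 genes stay between -0.33 and 0.50 in all 7.

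Genes that respond to tissue dissociation were in sum also higher in lung, though not each of them. The 9 genes Hspa1a, Hspa1b, Nr4a1, Egr1, Atf3, Dnajb1, Fos, Jun and Junb were all detected in every group, at 1486 to 1541 CPM in sum in lung and 343.8 to 401.2 in blood. Junb alone gave 24829 of the 36162 UMIs of this sum in naive lung, at 1058 CPM beside 210.6 in naive blood. In cells with no UMI of the first 6 of the 9 genes, which left 1173 of 3676 cells in naive lung and 2719 of 4367 in naive blood, the log2 lung over blood ratio of Emb was 2.14. The same ratio was 2.12 at 6 h and 2.45 at 14 days. For Slc16a1 the log2 lung over blood ratio in such cells was 0.15 in naive mice and 0.25 at 6 h, beside 0.43 and 0.50 in all cells.

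Cells with no UMI of any of the 9 genes were 3.10% of naive, 2.09% of 6 h and 2.83% of 14-day lung cells, and 19.7%, 15.04% and 16.3% of blood cells. In the lung groups Emb stood at 93.4 (70.3 to 122), 105.2 (80.5 to 135) and 116.3 CPM (90.3 to 147) in these cells, and at 369.3, 401.4 and 272.2 in the rest. Their lung over blood ratio of Emb was 0.72 (0.28 to 1.14) in naive mice, 0.74 (0.30 to 1.17) at 6 h and 2.09 (1.58 to 2.61) at 14 days, from 55, 61 and 68 lung UMIs. The median depth of these lung cells was 5249, 5778 and 5305 UMIs, beside 5934, 7030 and 7052 in the rest.

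Thinned cells were also split by their summed UMIs of the 9 genes, in a comparison added after seeing the data like that of the cells with none. In cells with 0 such UMIs the Emb ratio was 1.69 (1.42 to 1.95), 1.65 (1.39 to 1.92) and 1.97 (1.57 to 2.36) at naive, 6 h and 14 days, and in cells with 1 to 2 it was 2.25, 2.02 and 2.35. With 3 to 5 it was 2.64, 3.13 and 2.73, and with over 5 it was 4.03 (3.05 to 5.24), 2.92 (1.99 to 4.05) and 2.92 (1.56 to 4.803), from 4 to 9 blood UMIs. In naive lung Emb went from 210.5 CPM (181 to 243) with 0 to 354.0 (335 to 374) with over 5 stress UMIs, and in naive blood from 65.3 (58.7 to 72.4) to 21.7 (9.36 to 42.7, from 8 UMIs). Emb was thus higher in lung at each level of the stress genes, and less so where they were fewest. At the same mix of these levels in both tissues the Emb ratio was 2.45, 2.32 and 2.46. The ratio of Slc16a1 at the same mix was 0.69 in naive mice and -0.515 at 14 days.

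Emb UMIs were gathered in a part of the cells, whereas Bsg UMIs were spread over cells about as counting alone would spread them. UMIs of Emb were found in 31.3% (29.8 to 32.9) of naive lung, 32.4% (31.1 to 33.8) of 6 h lung and 31.8% (30.3 to 33.4) of 14-day lung cells. In blood the shares were 18.3% (17.2 to 19.5), 22.4% (20.8 to 24.0) and 12.9% (11.4 to 14.4). With all cells thinned to 3000 UMIs the shares were 25.9%, 25.7% and 22.6% in lung and 11.4%, 12.8% and 6.98% in blood, and 6 to 86 shallower cells per group were left out.

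In naive lung, 74.2% of thinned cells had no Emb UMI, where a Poisson distribution with the same mean would leave 39.1%. The variance of Emb over its mean was 6.40, 6.42 and 4.60 in naive, 6 h and 14-day lung and 1.97, 1.90 and 2.37 in blood. The tenth of naive lung cells with the most Emb held 73.6% of its UMIs, and single cells reached 32 UMIs in naive, 34 in 6 h and 17 in 14-day lung. Emb UMIs were thus clumped in cells, and the intervals of its summed counts, which treat UMIs as independent, are narrower than the spread among cells would make them. More than 5 Emb UMIs were found in 176 of 3590 naive (4.90%, 4.22 to 5.66), 265 of 4640 6 h (5.71%, 5.06 to 6.42) and 108 of 3537 14-day lung cells (3.05%, 2.51 to 3.67). In blood, 4 of 4292, 3 of 2726 and 4 of 2063 cells did so.

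Bsg behaved otherwise, with a variance over mean of 0.983 to 1.04 in the 6 groups. In naive lung 68.1% of thinned cells had no Bsg UMI, beside 68.0% for a Poisson distribution. Its UMIs were found in 54.2% to 68.7% of cells as deposited and in 27.1% to 37.1% after thinning. More than 5 Bsg UMIs were found in 1 cell over all groups, in naive blood. Slc16a1 was detected in 4.14% to 6.17% and Slc16a3 in 2.13% to 2.48% of cells before thinning, with a variance over mean of 0.983 to 1.14 and 0.990 to 1.10. The highest value was that of Slc16a1 in naive lung, where 97.55% of thinned cells had no UMI beside 97.39% for a Poisson distribution. Whether these values exceed 1 beyond counting error was not tested.

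The lung excess of Emb lay in both the share of cells and the UMIs per cell. After thinning, the share of cells with Emb was 2.27-fold, 2.00-fold and 3.24-fold higher in lung than in blood at naive, 6 h and 14 days. Among the cells with an Emb UMI, the mean was 3.64 UMIs in naive, 3.77 in 6 h and 2.86 in 14-day lung and 1.56, 1.54 and 1.52 in blood, which is 2.34-fold, 2.45-fold and 1.88-fold. Fewer cells that use a gene and less RNA per cell are hard to separate at low counts, since a cell with little RNA often shows none.

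**Figure D3:**
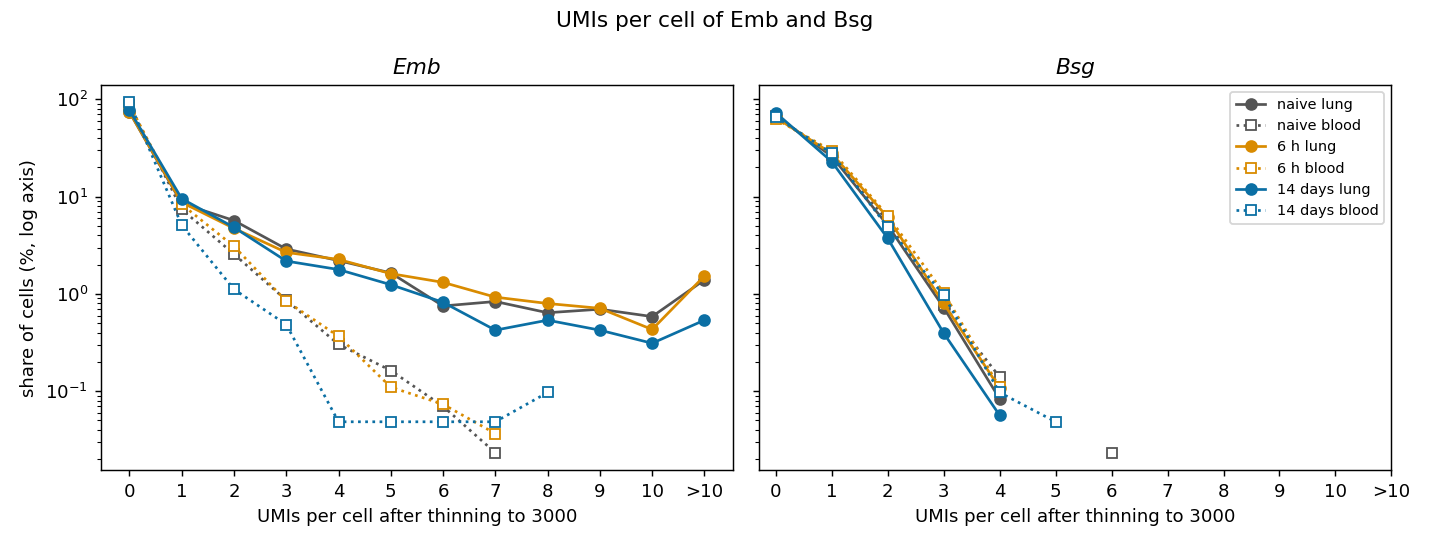
Share of cells (y axis, log scale, percent) with each number of UMIs (x axis) of Emb (left) and Bsg (right) after thinning to 3000 UMIs per cell, with lung as solid and blood as dotted lines. The Emb lines of lung extend beyond 10 UMIs, while in blood no cell has over 8 Emb UMIs and in no group does a cell have over 6 Bsg UMIs.

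At 6 h after tumor cells, all 4 genes were near their naive levels. Emb was higher by 0.13 (0.091 to 0.17) in lung and 0.12 (0.023 to 0.21) in blood on the log2 scale, and Bsg by 0.16 (0.095 to 0.22) and 0.20 (0.14 to 0.27). Among all genes the median was -0.092 in lung and -0.074 in blood, and 0.0257% of 3889 and 0% of 3910 genes differed by 2-fold or more in either direction, none of the 4 among them. The Emb value was 0.045 in lung and 0.155 in blood after thinning, both within counting error. Slc16a1 had ratios of 0.037 (-0.21 to 0.29) in lung and -0.030 (-0.34 to 0.28) in blood, and Slc16a3 had -0.10 (-0.52 to 0.31) and -0.062 (-0.54 to 0.40).

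At 14 days after tumor cells, Emb was lower in both tissues, and less so once the shift of all genes is taken off. Its log2 ratio to naive was -0.43 (-0.47 to -0.39) in lung and -0.68 (-0.80 to -0.56) in blood. The median of all genes reaching 50 CPM was -0.25 in lung and -0.20 in blood, and relative to it Emb stood at -0.18 and -0.48. Genes at least 2-fold lower were 2.11% of 3939 in lung and 0.0769% of 3902 in blood, and Emb was not among them in either. Both later time points were compared with the same naive library.

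In lung the 14-day value of Emb after thinning came from 0.875-fold as many cells with a UMI and 0.787-fold as many UMIs in those cells. In blood it came from 0.613-fold as many cells, with 0.977-fold as many UMIs in each. Bsg at 14 days was -0.23 (-0.31 to -0.16) in lung and -0.012 (-0.086 to 0.063) in blood, and 0.021 and 0.19 once the shift of all genes was taken off. Slc16a1 had -0.24 (-0.51 to 0.038) in lung and -0.095 (-0.44 to 0.25) in blood, and Slc16a3 had -0.33 (-0.79 to 0.12) and -0.13 (-0.66 to 0.38). Between thinned cells, Slc16a1 in lung was lower at 14 days by -0.55 (-1.03 to -0.076), from 64 UMIs beside 95 in naive lung. It was -0.61 (-1.19 to -0.044) in thinned cells without Itga1 or Pmepa1 and -0.755 (-1.86 to 0.467) in those with either. The interval also held 0 in each class by Cd27 and Itgam and in cells with Cx3cr1 and Klrg1. These thinned values keep the shift of all genes, whose median was -0.25 between the unthinned lung groups. The unthinned Slc16a1 value of -0.24 in lung was 0.016 relative to that median, a figure that does not apply to the thinned -0.55.

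The 14-day lung also stood apart in 3 stress genes that were higher than in naive lung and in Nr4a1, which was lower. Hspa1a had 22.1 CPM there and 1.15 in naive lung, Hspa1b 41.9 and 3.20, and Jun 217.0 and 106.4. Nr4a1 had 121.6 CPM in 14-day lung and 200.5 in naive lung. The Emb ratio of 14 days over naive in lung was -0.57 in cells with no UMI of the 6 genes named first and -0.53 at the same mix of stress gene levels. It was 0.32 (-0.22 to 0.86) in cells with none of the 9 genes, from 68 UMIs in 101 cells beside 55 in 114, so the lower level at 14 days was not seen in those few cells. In blood it was -1.06 (-1.47 to -0.66) in such cells.

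Emb differed between cells at different maturation stages, and Bsg differed little. Thinned cells were split by UMIs of Cd27 and Itgam, a split by detection in which cells with neither gene are mixed. In naive lung, Emb had 929.5 CPM (860 to 1002) in cells with Cd27 only, 545.0 (486 to 609) in cells with both, 341.0 (323 to 359) with neither and 186.5 (175 to 198) with Itgam only. Naive blood had the same order at 184.7, 96.3, 67.2 and 32.0 CPM. In cells with both Cx3cr1 and Klrg1 it had 57.7 CPM (44.3 to 74.0) in naive lung and 3.99 (1.30 to 9.30, from 5 UMIs) in naive blood.

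Cells with Cd27 only had more Emb than cells with Itgam only in all 6 groups, by log2 2.32 (2.18 to 2.46), 2.73 (2.60 to 2.85) and 2.53 (2.33 to 2.74) in naive, 6 h and 14-day lung. In blood the difference was 2.53 (2.23 to 2.82), 2.38 (1.98 to 2.79) and 1.77 (1.12 to 2.40). The cells with Cd27 only made up 6.71% of naive lung and held 19.9% of its Emb UMIs. For Bsg the same differences lay between -0.23 and 0.20, and the interval held 0 in all 6 groups.

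**Figure D4:**
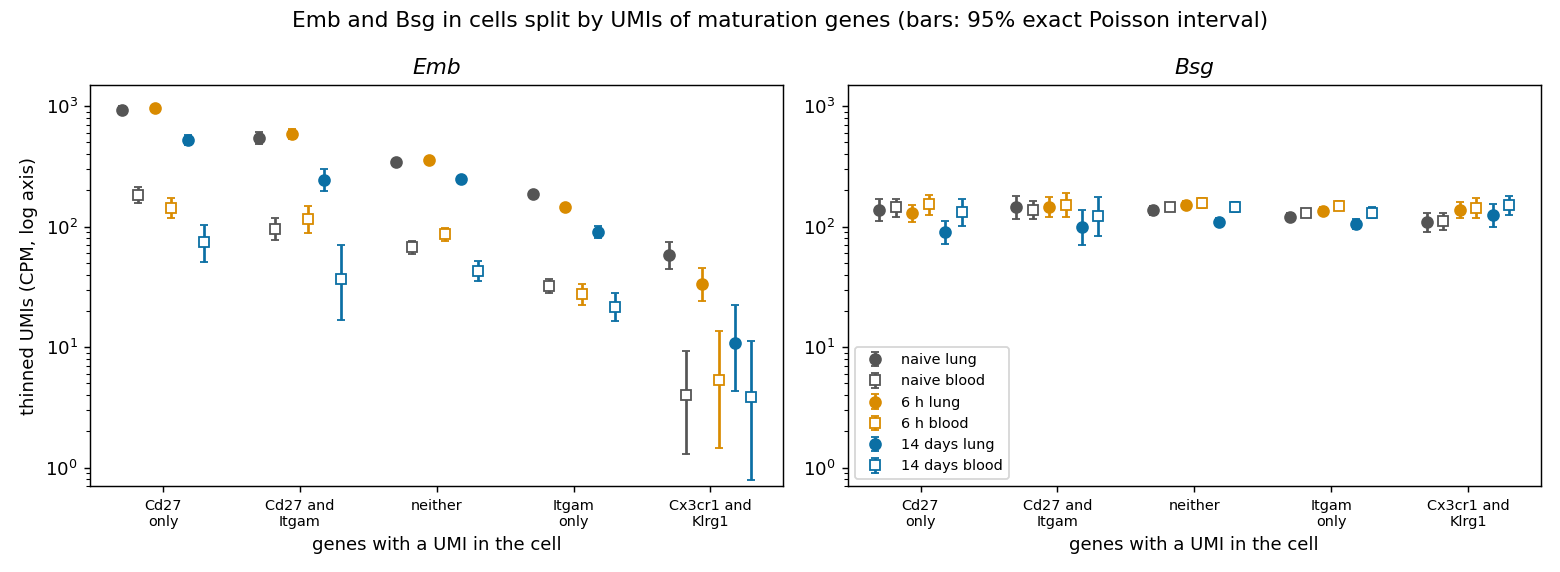
Emb (left) and Bsg (right) as CPM of thinned UMIs (y axis, log scale) in cells split by UMIs of Cd27, Itgam, and Cx3cr1 with Klrg1 (x axis), with 95% exact Poisson intervals. In naive lung Emb goes from 929.5 CPM with Cd27 only to 57.7 with Cx3cr1 and Klrg1, and lung lies above blood in each of the 4 Cd27 and Itgam classes.

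The lung excess of Emb was present in each class. The log2 lung over blood ratios in the 4 classes by Cd27 and Itgam were 2.04 to 2.82 over the 3 libraries, and none of their 12 intervals came below 1.66. In cells with Cx3cr1 and Klrg1 the ratio was 3.86 (2.56 to 5.53) in naive mice, 2.66 (1.19 to 4.60) at 6 h and 1.48 (-0.65 to 4.07) at 14 days, where 7 lung and 3 blood UMIs stood behind it. At the same mix of the 4 classes in both tissues, an alternative in thinned cells added after seeing the data, the ratio was 2.30 at 6 h and 2.498 at 14 days.

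At 14 days Emb was also lower than in naive lung within each class, by log2 -0.83 (-0.997 to -0.65) with Cd27 only, -1.16 (-1.51 to -0.81) with both, -1.04 (-1.22 to -0.86) with Itgam only and -0.45 (-0.56 to -0.34) with neither. The shift of all genes, with a median of -0.25 between the unthinned lung groups, was not taken off these values. Cells with neither gene were 37.6% of naive and 52.0% of 14-day lung cells, and cells with Itgam only were 50.4% and 36.0%. With the class mix held equal, the 14-day ratio of thinned cells in lung was -0.70 and the 6 h ratio was -0.038, beside -0.54 and 0.045 in thinned cells as they were. At 6 h the values in lung were 0.052 (-0.088 to 0.19) with Cd27 only and -0.36 (-0.49 to -0.23) with Itgam only.

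Itga1 (CD49a) and Pmepa1, a target gene of TGF-beta signalling, were detected alone or together in 8.13% of naive, 10.2% of 6 h and 34.8% of 14-day lung cells. In 14-day lung, Emb had 318.5 CPM (301 to 337) in these cells and 161.0 (152 to 171) in the others, a log2 difference of 0.98 (0.86 to 1.10), and these cells held 51.4% of its Emb UMIs. The difference was 1.02 (0.88 to 1.15) in naive and 0.81 (0.69 to 0.92) in 6 h lung. In blood it was 0.58 (0.14 to 0.99) in naive mice, -0.33 (-0.95 to 0.24) at 6 h and -0.35 (-1.33 to 0.49) at 14 days, so that only the naive value exceeded counting error. Bsg was lower in the Itga1 or Pmepa1 cells of 14-day lung, at 92.8 CPM against 113.1, a log2 difference of -0.29 (-0.47 to -0.10), and 0.16 (-0.12 to 0.43) apart in naive lung.

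Seen from the other side, lung cells with over 5 Emb UMIs differed from lung cells with none in the genes of maturation, while their difference in Bsg was within counting error. Cd27, the receptor of immature stages, was higher by log2 2.43 (2.07 to 2.77), 2.41 (2.13 to 2.69) and 1.85 (1.33 to 2.33) in naive, 6 h and 14-day lung. Cx3cr1, the fractalkine receptor of late stages, was lower by -3.18 (-4.50 to -2.13), -3.45 (-4.67 to -2.47) and -3.89 (-6.94 to -2.03). Klrg1, an inhibitory receptor of late stages, differed by -2.34, -1.97 and -3.20, and Itgam by -1.04, -1.42 and -1.75. Ncr1, which encodes NKp46, was lower by -0.46 (-0.61 to -0.31), -0.40 (-0.52 to -0.28) and -1.12 (-1.39 to -0.85). In 14-day lung it had 361.1 CPM in cells with over 5 and 783.3 in cells with no Emb UMI, and was found in 64.8% and 81.1% of them.

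Bsg differed between these cells by 0.30 (-0.042 to 0.63), 0.16 (-0.12 to 0.42) and -0.002 (-0.53 to 0.48), and Slc16a1 by 0.82 (-0.56 to 1.95), 0.066 (-1.29 to 1.17) and -0.69 (-6.03 to 1.86). In lung cells with 1 to 2 Emb UMIs, Slc16a1 had 13.7, 13.3 and 9.84 CPM at naive, 6 h and 14 days, against 7.51, 8.41 and 4.99 in cells with none. These are log2 differences of 0.87 (0.078 to 1.61), 0.67 (-0.037 to 1.32) and 0.98 (0.019 to 1.86), so the naive and 14-day values exceeded counting error. In blood the values were 7.79, 3.21 and 7.81 CPM against 5.52, 6.17 and 6.43, from 3 to 10 UMIs, all within counting error. For Slc16a3 the same comparison exceeded counting error in naive blood only, by 1.41 (0.155 to 2.53), from 9 UMIs. In lung cells with 3 to 5 Emb UMIs, Slc16a1 had 9.64, 7.675 and 12.7 CPM at naive, 6 h and 14 days, from 7 UMIs each. Bsg differed between cells with 1 to 2 and with no Emb UMIs by -0.18 to 0.15 over the 6 groups. This comparison was made for 3 genes in 6 groups, and its intervals make no allowance for their number. The correlation of any pair of the 4 genes over single cells was between -0.020 and 0.074 in all 6 groups. It is given as a description of sparse counts of cells that share a library. The highest value was that of Emb with Slc16a1 in the 2063 cells of 14-day blood. There, the 12 cells with 3 to 5 Emb UMIs held 2 Slc16a1 UMIs and the 4 cells with over 5 held 1.

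**Figure D5:**
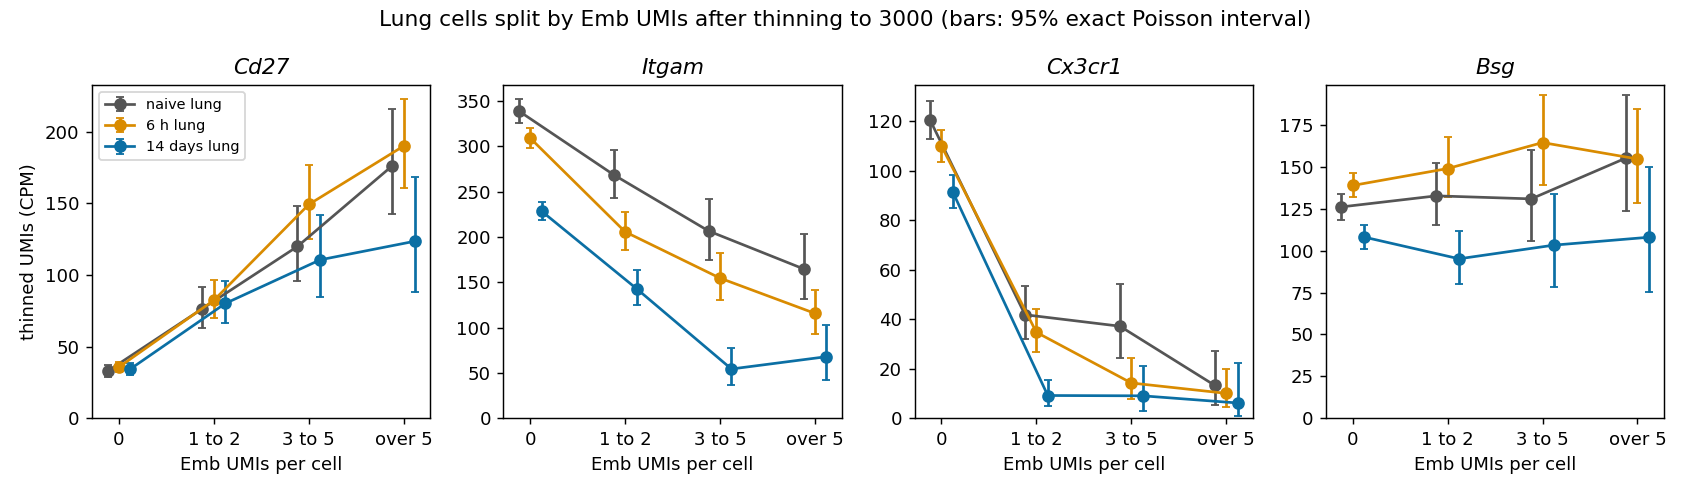
Cd27, Itgam, Cx3cr1 and Bsg as CPM of thinned UMIs (y axis, from 0) in lung cells with 0, 1 to 2, 3 to 5 and over 5 Emb UMIs (x axis), 1 color per library, with 95% exact Poisson intervals. Cx3cr1 in naive lung goes from 120.5 CPM in cells with no Emb UMI to 13.3 in cells with over 5, while Bsg goes from 126.1 to 155.3 with overlapping intervals.

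Other genes of the pathway were taken from lists. Of 40 such genes, all in the files, 18 had at least 50 CPM in naive lung or blood, of which 1 was at least 2-fold higher in lung and 0 at least 2-fold lower, beside 4.11% and 0.369% of all genes, a count too small to read against them. Their median log2 ratio was 0.083 beside -0.069 for all genes. The 12 other genes of the Slc16 family included 2 that reached 50 CPM in a group, 10 at or below 11.8 CPM, and 2 of these 10 with no UMI in any group. Slc16a7, which encodes MCT2, was among the 10, with 8.05, 6.12 and 4.08 CPM in lung and 9.57, 9.2 and 5.61 in blood. Its lung over blood ratio in naive mice was -0.25 (-0.52 to 0.020), within counting error. At 6 h it was lower in lung, where the intervals of 5.34 to 6.99 CPM in lung and 7.97 to 10.55 in blood did not overlap. At 14 days it was also lower in lung, with intervals of 3.37 to 4.90 in lung and 4.54 to 6.86 in blood. Slc16a10, an aromatic amino acid transporter, was the gene past 2-fold, with 72.9, 63.6 and 29.1 CPM in lung and 8.31, 6.30 and 5.73 in blood. Its lung over blood ratio was 3.13 (2.94 to 3.33) in naive mice, and in lung it was lower at 14 days by -1.32 (-1.44 to -1.20). Slc16a6, which encodes MCT7, had 69.2, 57.3 and 37.5 CPM in lung and 37.9, 37.1 and 44.8 in blood. Of the 2 sodium-coupled carriers, 1 had no UMI in any group and the other had at most 0.0426 CPM.

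Nptn, the remaining ancillary protein of this kind, had 351.0, 291.6 and 217.4 CPM in lung and 317.1, 273.1 and 243.7 in blood. It differed between tissues by 0.15 (0.10 to 0.19) in naive mice and -0.16 (-0.22 to -0.11) at 14 days, and in lung it was lower at 14 days by -0.69 (-0.74 to -0.64). Ldha, which makes lactate from pyruvate, was flat at 185.4 to 198.3 CPM in all 6 groups, and the mitochondrial pyruvate carrier genes Mpc1 and Mpc2 stayed at 85.7 to 99.3 and 71.5 to 81.7. Pkm, the last enzyme of glycolysis, was higher at 14 days by 0.27 (0.20 to 0.34) in lung and 0.20 (0.13 to 0.28) in blood. Pdhb of pyruvate dehydrogenase had 44.7 to 57.0 CPM. Hif1a, the hypoxia-inducible factor subunit, was higher in lung by 0.71 (0.61 to 0.82), 0.63 (0.52 to 0.75) and 0.63 (0.49 to 0.76).

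The glucose transporter genes went opposite ways between tissues. Slc2a1 (GLUT1) had 50.8, 51.4 and 46.8 CPM in naive, 6 h and 14-day lung and 34.4, 34.7 and 31.4 in blood. Slc2a3 (GLUT3) had 67.7, 64.0 and 54.9 CPM in lung and 97.7, 89.7 and 89.9 in blood, with log2 ratios of -0.53 (-0.62 to -0.44), -0.49 (-0.57 to -0.40) and -0.71 (-0.82 to -0.61). Lung was thus higher in Slc2a1 and lower in Slc2a3 at each time point.

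Among 8 genes whose proteins are known to bind basigin, 5 reached 50 CPM and 0 were at least 2-fold higher or lower in lung in any library. With 4.11%, 3.90% and 3.05% of all genes higher, a count of 0 among 5 says nothing about this list. Slc3a2 (CD98 heavy chain), which forms a membrane complex with basigin, came nearest to it, higher in lung by 0.92 (0.85 to 1.00), 0.80 (0.72 to 0.87) and 1.00 (0.91 to 1.09). The cyclophilin genes Ppia and Ppib, whose proteins are ligands of basigin, differed by -0.15 to -0.037 between tissues. Cd44, a hyaluronan receptor, had 130.7 to 170.6 CPM. Itgb1, the integrin beta 1 chain, was higher at 14 days in lung by 0.45 (0.42 to 0.48) and lower in blood by -0.42 (-0.46 to -0.39). Among 3 genes of pH control, Car2 (carbonic anhydrase 2) had 257.7 CPM in 14-day lung and 119.5 to 145.1 in the other groups, and 14-day lung also held the erythroid RNA given above, a cell type that uses Car2. UMIs of the erythroid genes were found in 0.867% of 14-day and 1.01% of naive lung cells, and those of Car2 in 61.1% and 40.5%. Ter119-bearing cells had been depleted before the sort. Whether erythroid RNA bears on the level of Car2 was not tested. Slc4a7, a sodium bicarbonate cotransporter, was higher in lung by 0.82 (0.73 to 0.91) in naive mice and 0.27 (0.14 to 0.39) at 14 days.

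Genes with a pattern like that of a member over the 6 groups were ranked by Pearson's r of log2(CPM + 1) among genes with at least 50 CPM in some group. The 6 groups come from 3 libraries, so this is a description. Nearest to Emb of 4206 genes were Slc2a1 (r = 0.999), the coenzyme Q binding gene Coq10b (0.996), the phosphatase regulator Ppp1r16b (0.995), the ubiquitin ligase component Wsb1 (0.995) and the immediate early gene Nr4a1 (0.994). Likeness to Emb was common, as 136 genes had r above 0.95 and 23 had the same rank order of groups, and likeness ignores size, since Slc2a1 differed by 0.56 between naive tissues where Emb differed by 2.41. Slc16a1 had r = 0.959 with Emb and Slc16a3 had 0.599, while Bsg had -0.339.

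Nearest to Bsg were the cytochrome oxidase subunit gene Cox6a1 (0.983), the vesicle coat GTPase gene Sar1b (0.982) and the proteasome subunit gene Psmb7 (0.980). Nearest to Slc16a1 were the stress sensor Ern1 (0.999), Gm37248 (0.994) and the transcription factor Stat3 (0.994), and nearest to Slc16a3 were the kinase gene Slk (0.997), the trans-Golgi gene Tgoln1 (0.996) and the sialyltransferase gene St8sia4 (0.995). The levels of Slc16a1 and Slc16a3 rest on 49 to 344 UMIs per group, which limits their own ranks.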

How the data were processed

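Sorted NK cells of lung and blood were profiled in 3 libraries with Chromium 3' v3.1 chemistry. The authors aligned reads to GRCm38.p6 (GENCODE M23) with Cell Ranger, version 7.0.1 per the labels and 7.1.0 per the file headers. The authors deposited raw UMI counts for all 1743618, 1796296 and 1388825 barcodes of the naive, 6 h and 14 days libraries, without cell calling or normalization.

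The 4 genes and all lists were chosen with earlier results of these data known. Barcodes with 800 to 5000 genes and at most 6% mitochondrial (mt-) counts were kept (8385, 7584 and 5785), and a cell took its tissue when at least 90% of its hashtag counts were B0304 (lung) or B0306 (blood), in the order in which the sources name tissues and tags. This left 342, 158 and 141 cells unassigned. Cells of both tissues in 1 droplet mostly fall there, and doublets within a tissue were not called. Counts were summed per group as CPM of all gene UMIs. Intervals are exact: conditional on the sum of both counts for ratios, Poisson for CPM and Clopper-Pearson for shares (Python 3.11.15, numpy 2.4.6, scipy 1.17.1, pandas 2.3.3). No test was run and no p given, since the genes were chosen with their differences known, each time point is 1 library and cells are not replicates. Lung and blood were compared within each library. Cells were thinned to 3000 UMIs for values per cell. On simulated counts of 3939 genes (14 days over naive, lung), 95.3% of intervals held the true ratio. This checks the calculation only and says nothing about spread among cells, mice or libraries. Genes named are the 4 genes, fixed lists with at least 50 CPM in a group, Slc16a7 as the gene of MCT2, and those with the highest correlation. Gene positions are from GENCODE M21, which held 25461 of the 25906 gene IDs. Start windows were found for 3 of the 4 genes. Alternatives were a wider barcode filter, 2 stricter hashtag rules, totals without mitochondrial and ribosomal protein genes, thinning, subtraction of free RNA, centring on all genes, and leaving out deep cells, cells with other cell types' markers or cells with a UMI of 6 of the 9 stress genes. Chosen after seeing the data were leaving out cells with a UMI of any of the 9 stress genes, an equal mix of maturation classes or of stress gene levels in thinned cells, and leaving out each library from the mean lung over blood ratio.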

Additional observations from a re-analysis of the deposited data

How the results depend on the processing

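Of 350 log2 ratios under 13 alternatives, 286 stayed within the counting interval of the value given, 60 left it and 4 that had exceeded counting error changed sign. For the time points no paired analysis was possible because each is 1 library. Lung and blood are paired by library, and the mean Emb ratio of 2.496 ± 0.14 (SD, n = 3 libraries of different time points) was 2.42 to 2.54 with each library left out in turn. The cause of each shift below was not tested. Equal class and stress mixes were taken in thinned cells.

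In cells with none of the 9 stress genes (98 to 114 lung cells per library) the Emb lung over blood ratio was 0.72, 0.74 and 2.09 at naive, 6 h and 14 days. The Emb ratio to naive was there 0.17 at 6 h in lung, 0.32 at 14 days in lung and -1.06 at 14 days in blood, and Bsg at 6 h was 0.10 for lung over blood. In the other alternatives the Emb lung over blood ratio lay between 2.12 and 2.76 in all 3 libraries. Its lowest values among these at naive and 6 h, 2.14 and 2.12, came from cells with no UMI of 6 of the 9 stress genes, where it was 2.45 at 14 days. Other values outside the counting interval were 2.49 without cells with other types' markers (naive), 2.30 with thinning, 2.54 with free RNA subtracted, 2.30 with an equal class mix and 2.32 with an equal stress mix (6 h), and 2.498 with an equal class and 2.46 with an equal stress mix (14 days). For Emb at 6 h over naive in lung the value of 0.13 became 0.076 with 98% of hashtag counts required, 0.045 with thinning, 0.22 relative to all genes, 0.089 without the deepest 5% of cells, 0.045 without cells with any of the 6 stress genes, -0.038 with an equal class mix and 0.045 with an equal stress mix. For 14 days over naive in lung, -0.43 became -0.48 with 98% of hashtag counts required, -0.27 with totals without mitochondrial and ribosomal protein genes, -0.54 with thinning, -0.18 relative to all genes, -0.50 without the deepest cells, -0.60 without cells with other types' markers, -0.57 without cells with any of the 6 stress genes, -0.70 with an equal class mix and -0.53 with an equal stress mix. For 14 days over naive in blood, -0.68 became -0.48 relative to all genes, -0.82 without the deepest cells, -0.82 without cells with other types' markers, -0.88 without cells with any of the 6 stress genes and -0.80 with an equal class mix. Bsg at 14 days over naive in lung became 0.021 relative to all genes.

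Depth limits both transporters, with 49 to 344 UMIs per group. At 6 h over naive in lung, for example, the interval of Slc16a3 was -0.52 to 0.31, and differences within it were not detectable.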
